A study of Homo sapiens with 16 samples.

Results

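The 34 genes described here encode large chromatin regulators, and they were followed in MCF10A cells, a non-tumorigenic human breast epithelial cell line, by RNA sequencing. They were chosen by name as writers, erasers, readers and remodelers of chromatin that are made from large transcripts, with earlier results of these data known. All 34 were found among the 26475 entries of the count table, and all 34 passed the filter on low counts in both fits. The 16 libraries formed 4 groups of 4. Control cells received DMSO vehicle and no collagen, collagen cells received DMSO and then collagen 1 at 0.05 mg/mL, DDR1i cells received DDR1-IN-1 at 2 μM, an inhibitor of the collagen receptor kinase DDR1, with collagen, and RUNXi cells received AI-10-104 at 5 μM, an inhibitor directed at RUNX transcription factors and their partner CBFβ, with collagen. Inhibitor or vehicle was on the cells for 48 h in all, the last 24 h of it with collagen in the 3 collagen groups, per the study's methods. All cells are of 1 line grown on plastic, and the sources used here do not say that the replicates came from separate cultures, so that p-values measure the spread between these libraries, which may be technical.

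Chromatin regulators act on the histones and DNA around which transcription is organised. Methyltransferases and acetyltransferases add marks to histone tails, demethylases and dioxygenases remove marks from histones or DNA, and remodelers spend ATP to slide, evict or exchange nucleosomes. Many are the scaffolds or motors of complexes of more than a megadalton, their open reading frames are long, and loss-of-function mutations in several of them recur in carcinomas, those of the breast included.

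As the choice of large transcripts had set, the genes were long. Their canonical transcripts had a median of 9469.5 bases, from 5281 bases for ZMYND8 to 20635 bases for KMT2D, against 3227 bases over all genes tested, and their coding parts had a median of 7179 bases against 1419. They held a median of 32.5 exons against 9, whereas the median GC content of the transcript was 47.6% against 48.4%. Lengths and positions are those of the GENCODE v44 annotation lifted to GRCh37. In CPM (read counts scaled to a common library size) per kb of transcript, averaged over the 16 libraries, the median level of the 34 was 5.79 against 7.27 over all genes tested. SMARCA4 at 56.9 and CHD4 at 56.0 CPM per kb, the ATPases of the BAF and NuRD remodelers, were the most abundant, followed by SMARCC1 at 36.5, and KMT2C at 2.32 and TET2 at 1.74 CPM per kb were the least. The lowest count of any of the 34 in any library was 122, so that counting error was small for all of them.

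Library totals ran from 12184619 to 44332378 counts. KRT5, a basal breast epithelial keratin, was at 6968 to 11588 CPM in every library, all 8 epithelial markers were detected, and the endothelial marker CDH5 and the fibroblast collagen COL3A1 were at 0 in all 16. Of the other fibroblast and leukocyte markers, DCN ran from 1.4 to 30.1 CPM and CD68 from 8.5 to 28.7 CPM, while COL1A1 reached 6.35 CPM and the endothelial PECAM1 and VWF 2.40 and 0.568 CPM in the highest library. In a bulk library, fewer cells expressing a gene and less of its RNA per cell cannot be told apart. Collagen replicate 3 was left out of the fits, and its values are given beside the results.

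Among the 34 genes the collagen libraries did not form a tight group. Collagen replicate 4 held the lowest level of all 16 libraries for 32 of the 34 genes, the exceptions being CHD8, lowest in collagen replicate 1, and TET3, lowest in RUNXi replicate 1. On the log2 scale relative to each gene's own mean of the 16 libraries, the median of the 34 was −0.86 in collagen replicate 4, −0.24 and −0.22 in collagen replicates 1 and 2, and 0.25 in collagen replicate 3. Collagen replicate 3 exceeded the other 3 collagen libraries for 33 of 34 genes and lay inside the range of the 4 control libraries for 27 of them. The control libraries had medians between −0.04 and 0.25, the RUNXi libraries between 0.00 and 0.09, and the DDR1i libraries 0.12 to 0.21 apart from replicate 1 at −0.21. The 34 genes thus moved largely together from library to library, and the 3 collagen libraries used in the fits were, with DDR1i replicate 1, the low ones.

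**Figure D1:**
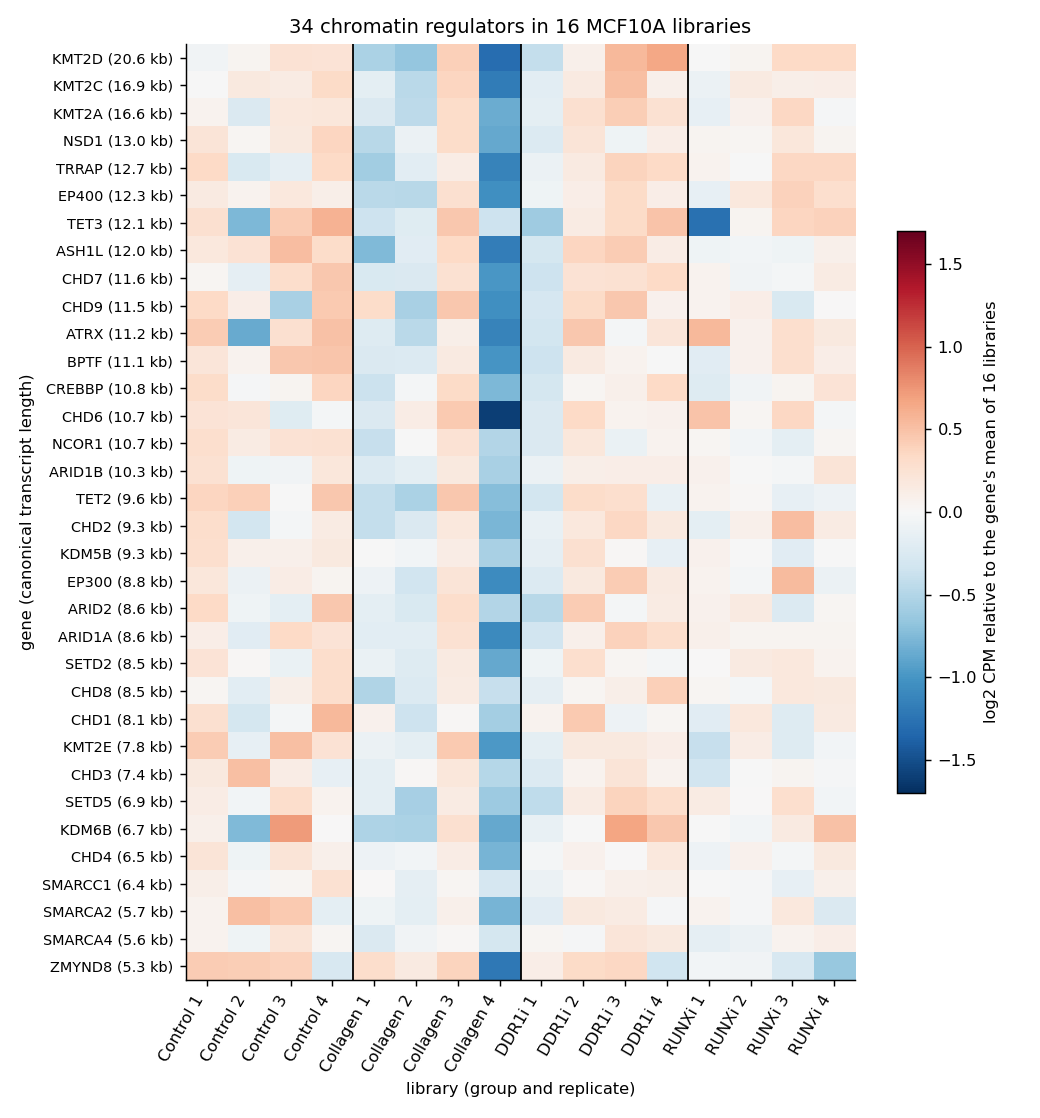
Heat map of the 34 genes, ordered by canonical transcript length on the vertical axis, in the 16 libraries on the horizontal axis; colour is log2 CPM relative to the gene's mean of the 16 libraries. Collagen replicate 4 is the lowest library for 32 of 34 genes, and collagen replicate 3 resembles the control libraries in colour more than it does the other collagen libraries.

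The first question was whether blocking DDR1 changed these genes in collagen-treated cells. DDR1i raised 6 of the 34 genes against collagen and lowered none: EP400, KMT2D, TRRAP, ASH1L, KMT2A and KDM6B (edgeR quasi-likelihood test, Benjamini-Hochberg adjusted p under 0.05 over 13548 genes, 4 DDR1i against 3 collagen libraries). Over all genes tested, 1.69% were called higher. All 34 estimates were above 0, with a median log2 fold change of 0.47, against 50.3% of all genes above 0 with a median of 0.00. In 12 of the 34 every DDR1i library lay above every collagen library used, against 8.49% of all genes. An unadjusted p under 0.05 was reached by 25 of the 34, all higher, against 9.88% of all genes higher at that level.

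The second comparison asked the same of the RUNX inhibitor. RUNXi raised 8 of the 34 genes against collagen and lowered none: EP400, TRRAP, KMT2D, ATRX, CHD2, KDM6B, NSD1 and KMT2A. Over all genes, 2.59% were called higher with RUNXi. The estimate was above 0 for 33 of 34, the exception being ZMYND8 at −0.13, and the median log2 fold change was 0.47, with 50.5% of all genes above 0. Every RUNXi library lay above every collagen library used for 18 of the 34, against 9.54% of all genes, and 22 of the 34 were higher at an unadjusted p under 0.05, against 10.8% of all genes. Both inhibitor comparisons use the same 3 collagen libraries, so that they are not independent of each other. Set side by side, EP400, KMT2D, TRRAP, KMT2A and KDM6B passed in both.

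These calls rested on which libraries were used, those of collagen among them. With collagen replicate 3 included no gene of the 34 was called with either inhibitor, and the median log2 fold changes were 0.27 with DDR1i and 0.26 with RUNXi. Without collagen replicate 1, 9 genes were called with DDR1i and 10 with RUNXi, and without collagen replicate 2, 7 with each. Without collagen replicate 4 the counts were 0 with DDR1i and 1 with RUNXi, EP400, and the medians 0.28 and 0.28. Leaving out DDR1i replicate 3 also ended all DDR1i calls, with the median at 0.47, and leaving out RUNXi replicate 3 left EP400 as the 1 RUNXi call, with the median at 0.44. Against control cells in place of collagen cells, no gene of the 34 was called with either inhibitor, and the medians were −0.05 with DDR1i and −0.10 with RUNXi. Calls over all genes in these changed fits are not given here, so that the counts do not show a loss particular to the 34.

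Collagen-treated and control cells were compared directly. No gene of the 34, and 0% of the 13092 genes tested, passed the adjusted threshold in edgeR. All 34 estimates were below 0, with a median log2 fold change of −0.53, against 49.1% of all genes below 0. An unadjusted p under 0.05 was reached by 26 of the 34, all lower, against 6.98% of all genes lower at that level. In 15 of the 34 every collagen library used lay below every control library, against 7.18% of all genes. DESeq2 called 8 of the 34 lower, ASH1L, BPTF, EP400, KMT2D, NCOR1, NSD1, SETD5 and TET2, among 399 genes in all. The share of all genes that DESeq2 called lower is not given here. Without collagen replicate 4 the median was −0.39 and 12 of 34 had an unadjusted p under 0.05. With collagen replicate 3 included, the values were −0.34 and 6. The shares of all genes at that level in these changed fits are not given here, so that the counts do not show a loss particular to the 34.

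**Figure D2:**
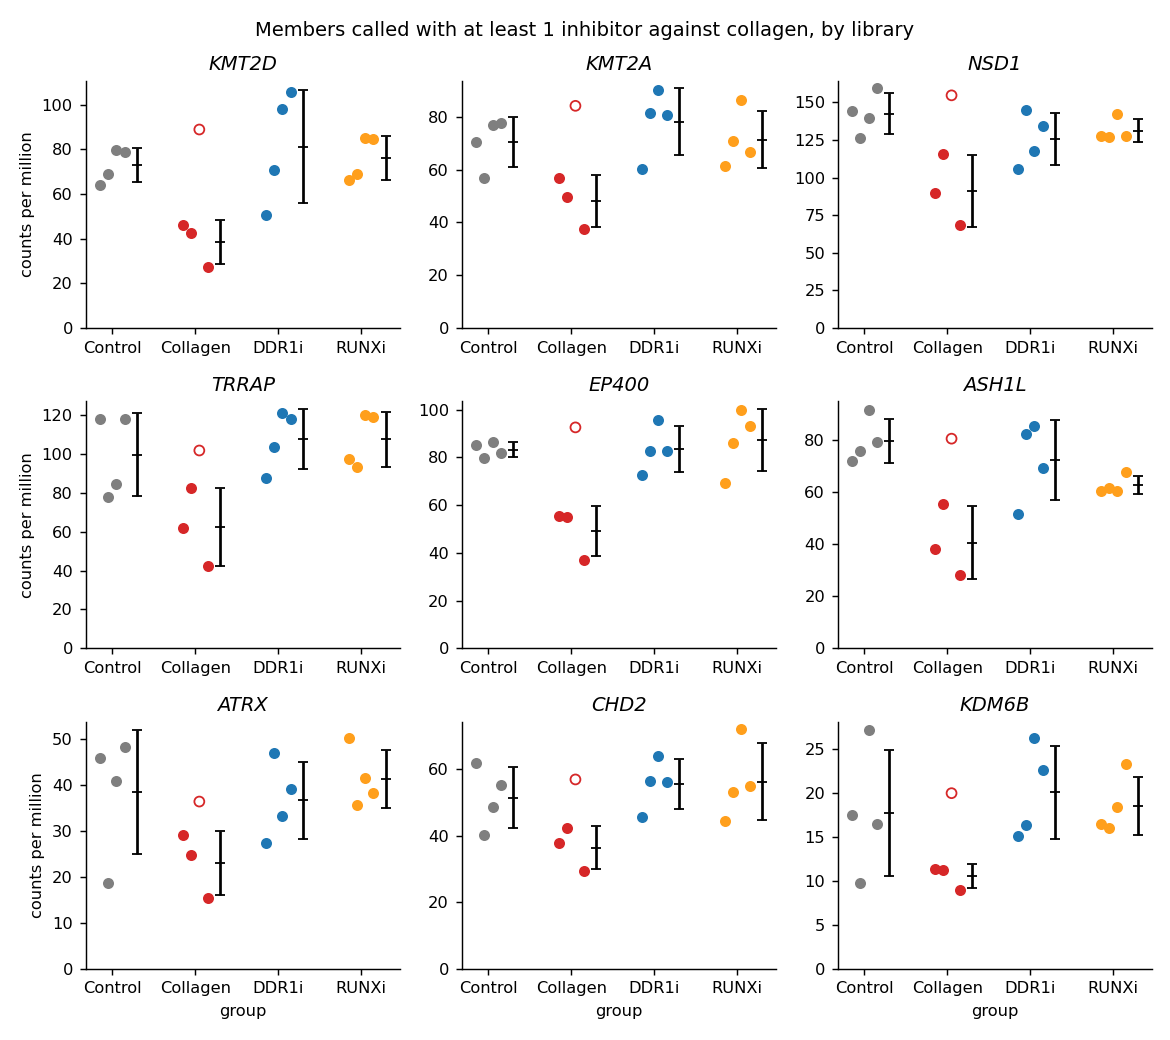
CPM of the 9 genes called with at least 1 inhibitor, by group, each point 1 library; bars are mean ± SD, and the open circle is collagen replicate 3, which is left out of the mean and the fits. The filled collagen points lie below every RUNXi point for all 9 genes, and the open circle lies within the range of the inhibitor and control points.

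Among the 8 genes grouped here as histone methyltransferases, 3 were called with each inhibitor. The grouping is by list, and enzyme activity was not measured. KMT2D, which with KMT2C methylates histone H3 at enhancers, had the largest estimate of the 34 genes in both. Its gene lies on the minus strand of chromosome 12, 49412758 to 49454577. KMT2D was at 45.95, 42.36 and 27.2 CPM in collagen replicates 1, 2 and 4 and at 88.85 CPM in replicate 3. In the DDR1i libraries KMT2D was at 50.39, 70.77, 97.99 and 105.6 CPM, and in the RUNXi libraries at 66.21, 68.98, 84.83 and 84.38 CPM. The 4 control libraries held 64.04, 68.86, 79.56 and 78.73 CPM. The 3 low collagen libraries thus lay below all 12 control and inhibitor libraries, and the fourth lay above all of the control and RUNXi libraries. The log2 fold change of KMT2D was 1.07 ± 0.22 (SE, adjusted p = 0.0172) with DDR1i and 0.98 ± 0.22 (adjusted p = 0.0229) with RUNXi.

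KMT2A, a methyltransferase of active promoters and the gene rearranged in mixed-lineage leukemia, was at 57.0, 49.49 and 37.5 CPM in the collagen libraries used, and at 84.22 CPM in replicate 3. It was at 60.19 to 90.29 CPM with DDR1i and at 61.45 to 86.43 CPM with RUNXi, so that neither inhibitor group overlapped with the collagen libraries used. The log2 fold changes of KMT2A were 0.70 ± 0.16 (adjusted p = 0.0233) and 0.57 ± 0.16 (adjusted p = 0.0495). ASH1L, a methyltransferase of histone H3 in transcribed genes, was at 37.92, 55.53 and 28.17 CPM with collagen, and at 80.42 CPM in replicate 3. In the DDR1i libraries ASH1L was at 51.54, 82.11, 85.45 and 69.24 CPM, so that its groups overlapped, and its log2 fold change was 0.83 ± 0.19 (adjusted p = 0.0222). In the RUNXi libraries ASH1L was at 60.34 to 67.59 CPM, above all 3 collagen libraries used, with a log2 fold change of 0.62 ± 0.19 that did not pass (adjusted p = 0.0629).

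NSD1, which dimethylates histone H3 on lysine 36, passed with RUNXi (log2 fold change 0.52 ± 0.15, adjusted p = 0.0493) and not with DDR1i (0.46 ± 0.15, adjusted p = 0.0923), and DDR1i against RUNXi gave it a log2 difference of −0.06 with an interval from −0.34 to 0.23. NSD1 was at 89.48, 115.7 and 68.15 CPM in the collagen libraries used and at 154.7 CPM in replicate 3, and at 127.1 to 142.3 CPM with RUNXi. KMT2C, SETD2, SETD5 and KMT2E did not pass with either inhibitor. Their log2 fold changes ran from 0.43 for SETD2, which adds the last methyl group to the same lysine, to 0.71 for KMT2C with DDR1i, and from 0.24 for KMT2E to 0.61 for KMT2C with RUNXi. All 8 genes of this group were above 0 in both comparisons, with medians of 0.63 and 0.55.

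Of the 4 acetyltransferases and partners, EP400 and TRRAP were called with both inhibitors. EP400, the ATPase of the TIP60 complex, lies on the plus strand of chromosome 12, 132434487 to 132565005. EP400 was at 55.65, 55.04 and 37.14 CPM in the collagen libraries used, and at 92.57 CPM in replicate 3. It was at 72.65, 82.59, 95.81 and 82.86 CPM with DDR1i and at 69.45, 86.23, 99.8 and 93.34 CPM with RUNXi. The control libraries lay close together at 85.1, 79.88, 86.41 and 81.76 CPM, so that only the 3 low collagen libraries stood apart from the other 13. EP400 had a log2 fold change of 0.76 ± 0.16 (adjusted p = 0.0116) with DDR1i and 0.82 ± 0.16 (adjusted p = 0.00688) with RUNXi, the smallest adjusted p of the 34 genes in both.

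TRRAP, the scaffold that the TIP60 and SAGA acetyltransferase complexes share, was at 61.93, 82.6 and 42.47 CPM with collagen and at 101.7 CPM in replicate 3. TRRAP was at 87.4 to 121.0 CPM with DDR1i and at 93.2 to 119.8 CPM with RUNXi, above the collagen libraries used in both groups. In the control libraries it was at 118.0, 77.89, 84.23 and 117.7 CPM, which overlaps with all other groups. The log2 fold changes of TRRAP were 0.78 ± 0.17 (adjusted p = 0.018) and 0.78 ± 0.17 (adjusted p = 0.0183). The paralogous acetyltransferases EP300 and CREBBP did not pass, with log2 fold changes of 0.59 and 0.41 with DDR1i and of 0.57 and 0.36 with RUNXi.

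Among the 8 CHD remodelers only CHD2 was called, with RUNXi. CHD2, a remodeler of active genes, was at 37.64, 42.13 and 29.25 CPM in the collagen libraries used and at 56.83 CPM in replicate 3. It was at 44.39, 53.15, 71.97 and 54.95 CPM with RUNXi, with a log2 fold change of 0.62 ± 0.17 (adjusted p = 0.0419), and at 45.65 to 63.87 CPM with DDR1i, with 0.61 ± 0.17 (adjusted p = 0.055). The direct log2 difference between the inhibitors was −0.01 with an interval from −0.33 to 0.31. CHD3, one of the NuRD ATPases, had the smallest log2 fold changes of the CHD group, 0.23 with DDR1i and 0.12 with RUNXi, and was at 125.9, 143.3 and 101.3 CPM in the collagen libraries used and at 162.3 CPM in replicate 3. The medians of the group were 0.48 and 0.38.

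None of the 6 SWI/SNF subunits was called. Their log2 fold changes ran from 0.17 to 0.56 with DDR1i and from 0.12 to 0.47 with RUNXi, with SMARCC1 lowest and ARID1A highest in both. SMARCC1, a core scaffold of the complex, was at 232.5, 207.0 and 190.2 CPM in the collagen libraries used, at 237.3 CPM in replicate 3, at 216.3 to 247.4 CPM with DDR1i and at 209.9 to 244.9 CPM with RUNXi, and its groups overlapped. ARID1A, the DNA-binding subunit most often mutated in carcinomas, was at 84.77, 84.83 and 45.35 CPM in the collagen libraries used, at 114.6 CPM in replicate 3 and within 98.76 to 101.6 CPM in the 4 RUNXi libraries. It did not pass (adjusted p = 0.102 with DDR1i and 0.139 with RUNXi).

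Of the other remodelers and readers, ATRX, which deposits the histone variant H3.3 in repeats, was called with RUNXi. ATRX was at 29.12, 24.73 and 15.43 CPM in the collagen libraries used, at 36.4 CPM in replicate 3, and at 50.13, 35.67, 41.46 and 38.16 CPM with RUNXi. The groups did not overlap, and the log2 fold change was 0.84 ± 0.21 (adjusted p = 0.0269), whereas with DDR1i ATRX was at 27.34 to 46.9 CPM with 0.67 ± 0.21 (adjusted p = 0.0808). The control libraries of ATRX spread from 18.77 to 48.21 CPM. BPTF, the largest subunit of the NURF remodeler, did not pass, with 0.43 and 0.52. ZMYND8, an acetyl-lysine reader and the shortest transcript of the 34, was the 1 gene with an estimate below 0 with RUNXi, −0.13 ± 0.32, which did not pass. ZMYND8 was at 119.8, 107.3 and 41.67 CPM in the collagen libraries used and at 126.1 CPM in replicate 3, and without collagen replicate 4 its log2 fold change with DDR1i was −0.08 in place of 0.25.

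Among the demethylases, dioxygenases and the corepressor, KDM6B was called with both inhibitors. KDM6B, which removes methyl groups from histone H3 lysine 27, lies on the plus strand of chromosome 17, 7737535 to 7758114. It was at 11.39, 11.25 and 8.975 CPM in the collagen libraries used and at 19.95 CPM in replicate 3, at 15.09, 16.29, 26.24 and 22.57 CPM with DDR1i, and at 16.41, 15.96, 18.34 and 23.24 CPM with RUNXi. Both inhibitor groups lay above the collagen libraries used, and the controls, from 9.746 to 27.14 CPM, overlapped with all groups. The log2 fold changes of KDM6B were 0.93 ± 0.23 (adjusted p = 0.0323) and 0.81 ± 0.23 (adjusted p = 0.0467). At 6728 bases its transcript is shorter than those of the other 8 genes called.

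KDM5B, which removes methyl groups from histone H3 lysine 4, and NCOR1, the corepressor that binds histone deacetylase, had low estimates for their length. KDM5B, with a transcript of 9292 bases, had log2 fold changes of 0.19 and 0.15, and NCOR1, with 10705 bases, 0.26 and 0.24, and neither passed. KDM5B was at 107.8, 105.3 and 74.28 CPM in the collagen libraries used, at 118.2 CPM in replicate 3 and at 97.57 to 131.7 CPM with DDR1i. TET2 and TET3, which oxidise methylated cytosine, did not pass either, with 0.61 and 0.44 with DDR1i and 0.51 and 0.31 with RUNXi. TET2 was at 12.23, 11.21 and 9.816 CPM in the collagen libraries used, below every library of the other 3 groups, and at 22.25 CPM in collagen replicate 3.

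The inhibitors were compared with each other in the same fit. No gene of the 34 was called, against 0.568% of all genes called in either direction, and DESeq2 called 0 as well. None of the 34 had an unadjusted p under 0.05, against 839 of 13548 genes. All 34 had overlapping groups, and the share of all genes with groups that did not overlap was not computed for this comparison. Log2 differences of DDR1i minus RUNXi ran from −0.17 for ATRX to 0.38 for ZMYND8. The interval for KMT2D, 0.10 with bounds of −0.32 and 0.52, and that for ZMYND8, with bounds of −0.27 and 1.03, leave room for differences in either direction.

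Promoter sequence was examined because RUNX factors bind a short core motif and 1 of the inhibitors is directed at them. The RefSeq table (GRCh38.p14) held 45 start sites of 27 of the 34 genes. Over the 250 bases before the start, the RUNX core TGTGGT or TGCGGT occurred, on either strand, in 5 of the 45, or 11.1%, against 16.3% of 35071 promoters of other genes. KMT2A, called with both inhibitors, held no match and is not shown, and TRRAP, also called with both, had no start site among the 45. The promoters of EP400, KMT2D and KDM6B, the others called with both inhibitors, are shown, 5′ to 3′ on the strand of the gene, with the core in capitals.
EP400, chr12:131949692-131949941, plus strand: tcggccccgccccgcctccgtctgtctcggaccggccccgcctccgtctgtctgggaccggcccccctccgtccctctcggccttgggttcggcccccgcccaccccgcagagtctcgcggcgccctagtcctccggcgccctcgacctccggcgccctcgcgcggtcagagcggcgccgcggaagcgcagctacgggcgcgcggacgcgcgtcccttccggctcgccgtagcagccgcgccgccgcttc
KMT2D, chr12:49060795-49061044, minus strand: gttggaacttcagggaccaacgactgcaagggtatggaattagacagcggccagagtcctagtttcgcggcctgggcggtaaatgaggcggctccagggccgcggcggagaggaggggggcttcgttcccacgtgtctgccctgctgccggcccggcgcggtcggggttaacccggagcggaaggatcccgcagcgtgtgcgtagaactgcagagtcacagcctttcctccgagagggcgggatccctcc
KDM6B, chr17:7833967-7834216, plus strand: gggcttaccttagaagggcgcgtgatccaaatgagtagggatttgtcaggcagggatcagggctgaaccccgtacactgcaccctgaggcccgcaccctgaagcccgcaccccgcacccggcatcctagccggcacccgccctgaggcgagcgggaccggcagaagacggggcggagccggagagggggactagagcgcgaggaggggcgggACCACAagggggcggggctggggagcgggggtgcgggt
KDM6B held 1 match at the start site shown, on the opposite strand, whose first base lies 38 bases before the start. The other start site of KDM6B held none, and EP400 and KMT2D held none in this window. A match is a string of letters and not a site of binding, and its absence says only that these letters are not in these 250 bases.

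Across the 34 genes, the size of the estimate went with the length of the transcript. The correlation of log2 fold change with log2 canonical length was r = 0.60 with DDR1i, 0.62 with RUNXi and −0.58 for collagen against control (Pearson, 34 genes that share all libraries, given as a description), and with log2 coding length it was 0.65, 0.67 and −0.58. With GC content it was 0.23, 0.17 and 0.02, and with the log2 level of the gene −0.44, −0.39 and 0.48. The trend was not particular to chromatin regulators. Among the other genes tested, 0.0865% of those under 2000 bases and 12.3% of those of at least 12000 bases were called higher with DDR1i, and 0.231% and 14.9% with RUNXi. Of the 34, 8 were at least 12000 bases long, and 5 of these were called with each inhibitor.

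**Figure D3:**
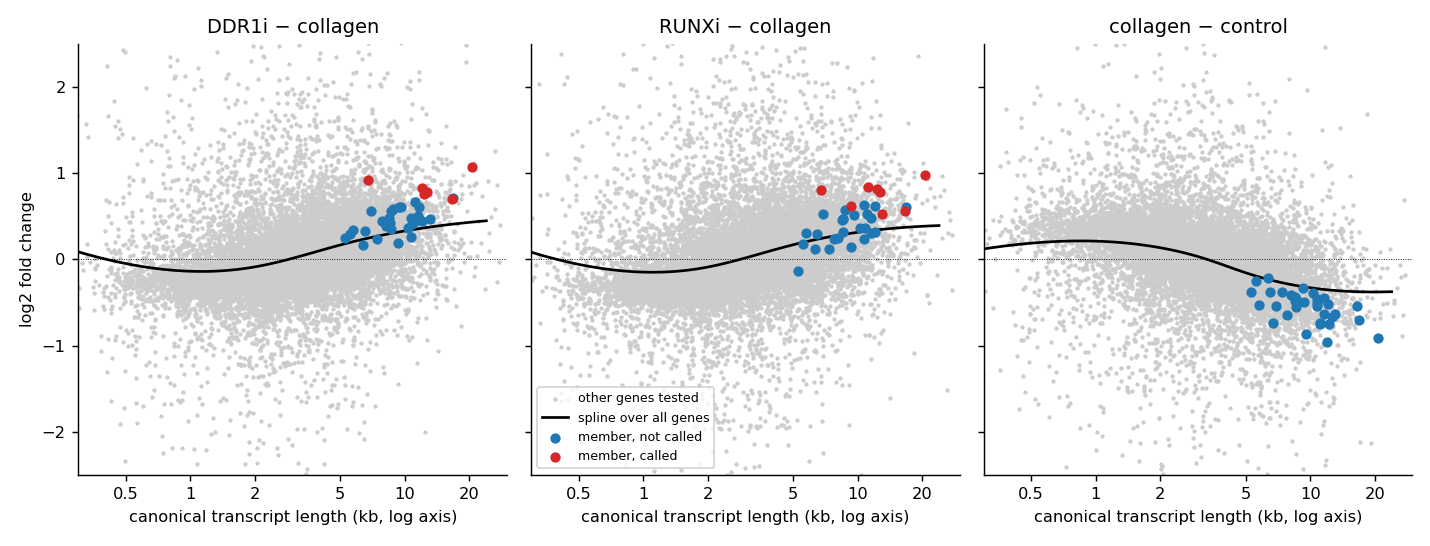
Log2 fold change of each gene against canonical transcript length (log axis) for the 3 comparisons. The 34 genes are in blue or, where called, in red, and all other genes tested in grey. The line is a spline over the genes of known length other than the 34, and grey points beyond the axis limits are not drawn. Over the lengths of the 34 genes the line lies above 0 for both inhibitors and below 0 for collagen minus control, and 30, 24 and 1 of the 34 lie above it.

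The same slope was present in single libraries. The slope of log2 CPM, relative to the gene's mean, on log2 length was taken over the genes of known length other than the 34. It was −0.195 per doubling of length in collagen replicate 4, −0.0712 in DDR1i replicate 1, −0.0326 and −0.0462 in collagen replicates 1 and 2, and 0.0222 in collagen replicate 3. It was 0.0308 to 0.0607 in the control libraries. Collagen replicates 1, 2 and 4 and DDR1i replicate 1 had both the lowest medians of the 34 and the lowest slopes. The match did not hold throughout. Control replicate 2 had the highest slope, 0.0607, with a median of −0.04, and DDR1i replicate 4 had a slope of −0.0127 with a median of 0.12. The cause of the slope was not tested.

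**Figure D4:**
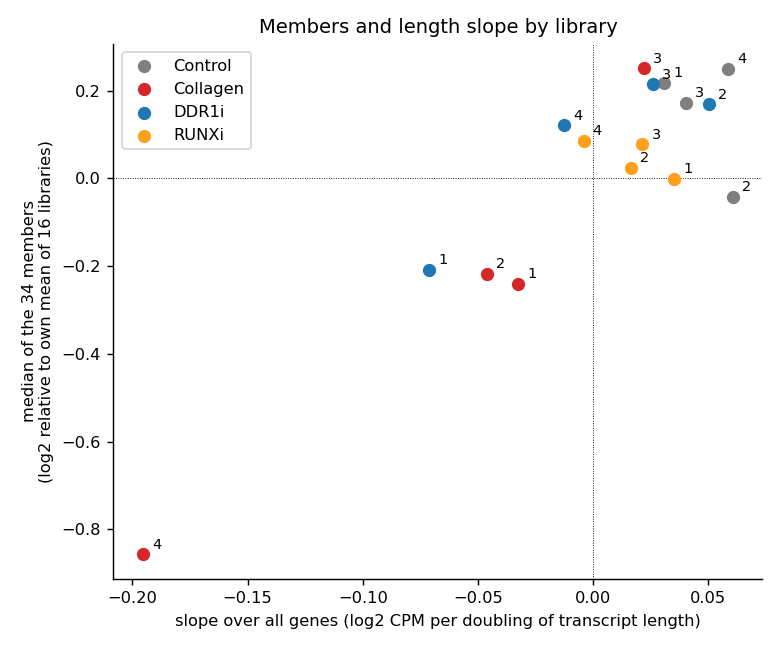
Median of the 34 genes in each library (log2 relative to each gene's mean of 16 libraries) against the slope of log2 CPM on log2 transcript length over the genes of known length other than the 34. Each point is 1 library, coloured by group and numbered by replicate. Collagen replicate 4 lies apart at −0.195 and −0.86, and collagen replicates 1 and 2 and DDR1i replicate 1 are the next lowest on both axes.

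The length trend was then removed from every library with a spline and the fits were repeated on the 13169 genes with a known length. A response of the cells that itself went with transcript length would be removed as well. No gene of the 34 was called with either inhibitor, against 0.258% of all genes called higher with DDR1i and 0.585% with RUNXi by edgeR, and 5 and 6 of the 34 were higher at an unadjusted p under 0.05, against 4.28% and 6.3% of all genes. The median log2 fold change of the 34 was 0.15 with DDR1i and 0.20 with RUNXi, in place of 0.47 in both, with all genes at −0.05 and −0.01. The estimate stayed above 0 for 30 of 34 with DDR1i and 27 of 34 with RUNXi, against 42.8% and 48.2% of all genes.

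After removal the highest estimates with DDR1i were those of KDM6B at 0.68 (adjusted p = 0.131), KMT2D at 0.60 (adjusted p = 0.0956) and ASH1L at 0.46 (adjusted p = 0.144), all from edgeR. With RUNXi they were KMT2D at 0.62 (adjusted p = 0.0821), KDM6B at 0.59 (adjusted p = 0.196) and ATRX at 0.56 (adjusted p = 0.147), and EP400 at 0.50 had the smallest adjusted p, 0.057. The lowest were KDM5B at −0.13, NCOR1 at −0.09 and SMARCC1 at −0.07 with DDR1i, and ZMYND8 at −0.26, KDM5B at −0.13 and CHD3 at −0.11 with RUNXi. By role, the acetyltransferases and partners kept the highest medians, 0.34 and 0.39, followed by the methyltransferases at 0.28 and 0.24. The CHD remodelers were at 0.15 and 0.14, and the other remodelers and readers at 0.09 and 0.22. The SWI/SNF subunits were at 0.07 and 0.06, and the demethylases, dioxygenases and corepressor at 0.04 and −0.04.

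What was left after removal depended on the length used. With the length of the coding part in place of the transcript the medians were −0.01 with DDR1i and 0.05 with RUNXi, 16 and 20 of the 34 were above 0, and none was called. With the union of exons the medians were 0.21 and 0.26, KMT2D was called with DDR1i, and EP400, KMT2D and TRRAP with RUNXi. Without collagen replicate 4 the medians after removal were 0.06 and 0.05. GC content in place of length left medians of 0.37 and 0.44, with 6 and 7 of the 34 called. Calls over all genes in the fits of this paragraph are not given here, so that these counts have no background beside them.

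**Figure D5:**
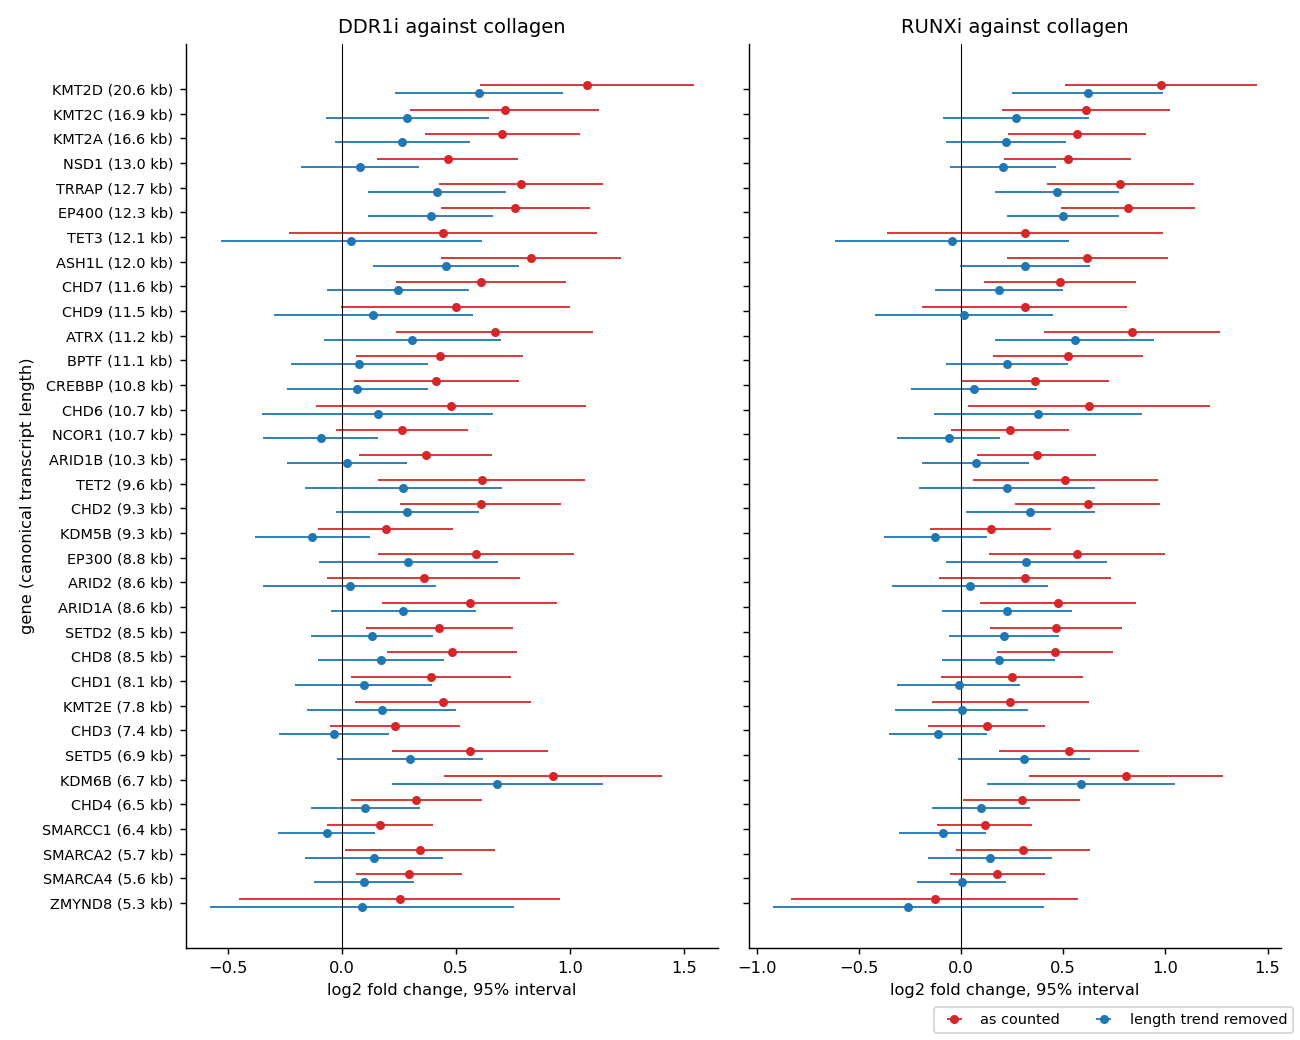
Log2 fold change with its 95% interval for each of the 34 genes, ordered by canonical transcript length, in the DDR1i and RUNXi comparisons, as counted (red) and with the length trend removed (blue). The blue points lie to the left of the red ones for all 34 genes, with medians of 0.15 and 0.20 in place of 0.47 and 0.47.

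For collagen against control the removal also left no call, as it did over all genes (0%), and 7 of the 34 had an unadjusted p under 0.05, all lower, against 3.61% of all genes. All 34 estimates were still below 0, with a median of −0.27, while 58.8% of all genes were below 0 with a median of −0.06. ASH1L at −0.71, KMT2D at −0.65 and TET2 at −0.60 were the lowest. With the coding length the median was −0.14, 2 of the 34 were above 0, and 2 had an unadjusted p under 0.05. DDR1i against RUNXi again gave no call among the 34, against 0.661% of all genes, with a median of 0.00.

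A wider list of 147 chromatin genes, of which 145 were tested, showed the same dependence on length. With DDR1i, 2 were called higher (1.38%, against 1.69% of all genes) and none lower, DNMT1 at 0.55 ± 0.12 (adjusted p = 0.017), the maintenance DNA methyltransferase, and NSD2, listed under its older name WHSC1, at 0.49 ± 0.12 (adjusted p = 0.0304). With RUNXi, 3 were called higher (2.07%, against 2.59%), BRWD3 at 0.96, KMT2B at 0.65 and DNMT1 at 0.46, and 1 lower, the methyl-CpG binding protein MBD2 at −0.46 (adjusted p = 0.0342). The 86 genes with transcripts shorter than that of ZMYND8 had median log2 fold changes of −0.01 with DDR1i and −0.04 with RUNXi, and the 59 as long or longer had 0.28 and 0.27. After removal of the length trend none of the wider list was called higher, and 3 of 145 were called lower with each inhibitor. Over all genes, 123 of 13169 were called lower with DDR1i and 120 with RUNXi. The 3 are named here after their values were seen. With DDR1i they were the histone deacetylase HDAC2 at −0.59 (adjusted p = 0.0197), MBD2 at −0.56 (adjusted p = 0.0274) and TBL1XR1, a subunit of corepressor complexes, at −0.56 (adjusted p = 0.0407). With RUNXi they were MBD2 at −0.62 (adjusted p = 0.0116), HDAC2 at −0.56 (adjusted p = 0.0211) and the ISWI ATPase SMARCA5 at −0.48 (adjusted p = 0.0433). With each inhibitor, 2 of the 3 were among the 59 longer genes. The lowest estimate of those 59 before removal was −0.26 with DDR1i and −0.25 with RUNXi. Part of the estimates of these longer genes thus came with the removal.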

How the data were processed

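RNA of 16 MCF10A samples was sequenced, and the deposited values are raw read counts per gene, which per the labels and the study's methods the authors obtained after alignment with STAR to hg19; the counting tool, its strand setting and the annotation are not given in the sources used here, so that reads of overlapping genes on opposite strands cannot be told apart. Samples were grouped by title. Counts were analysed with edgeR 4.0.16 in R 4.3.3 (TMM, filterByExpr, robust quasi-likelihood test, Benjamini-Hochberg threshold 0.05), in a fit of 11 collagen, DDR1i and RUNXi libraries and a fit of 7 collagen and control libraries, both without collagen replicate 3, which the study's methods also left out. CPM use TMM-scaled totals of all 16 libraries, and the means and SDs of collagen hold 3 libraries. Group levels are therefore CPM, and fold changes are those of the fit. Intervals are 95% intervals of the fit.

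To remove the length trend, log2 CPM (prior count 2) relative to each gene's mean was fitted in each library by a natural spline (4 degrees of freedom) on log2 canonical transcript length, and the fitted values entered edgeR as offsets. Of the entries, 22606 matched the annotation by current and 1283 by older symbol. The genes named are, per comparison, up to 6 genes with the smallest adjusted p among those called and, per inhibitor, the 3 highest and 3 lowest after removal, with up to 3 higher and 3 lower of the wider list; other genes of the 34 are named after their values were seen. The 34 genes and all lists were chosen with earlier results of these data known. Alternatives included DESeq2 1.42.0, other filters, lengths and reference groups, each library left out, and, chosen after seeing the data, collagen replicate 3 in place of 4, coding length, and a trend fitted without the 34. The fits were tested on simulated data. Totals of at least 12184619 counts leave counting error small for these genes, whose lowest count was 122; the biological coefficient of variation was 0.287 and 0.353 in the fits. The closest pair of replicates differed by 18.7 times the sampling variance (chi-square per degree of freedom), so that none was counted as a repeat of another.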

Additional observations from a re-analysis of the deposited data

Results flagged for a closer look

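In groups of 4 libraries, Dixon's gap test was applied to 68 sets of values, the totals, the length slope, the median and the summed CPM of the 34 genes, and the CPM of the genes named by rule. It marked 5 sets, and chance marks about 1 in 20, or 3.4 here. The summed CPM of the 34 genes was low in control replicate 2, at 2919 against 3288 to 3308 in the other control libraries, and in DDR1i replicate 1, at 2624 against 3211 to 3295 in the other DDR1i libraries. ZMYND8 was low in control replicate 4 at 79.91 CPM, and ASH1L was high in RUNXi replicate 4 at 67.59 CPM. Collagen replicate 1 had the smallest total of its group, 17570707 counts. Collagen replicate 4, the lowest library for 32 of the 34 genes, was not marked by this test in its group of 4. That group holds collagen replicate 3, whose median of the 34 was 0.25 against −0.86 in replicate 4. It widens the range by which the test divides the gap. The lack of a mark thus does not show replicate 4 to be like the others.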

How the results depend on the processing

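Against collagen, the median log2 fold change of the 34 genes moved little under the alternative tests, normalization and filters tried, being 0.47 for DDR1i and 0.45 to 0.47 for RUNXi, while against control the medians were −0.05 and −0.10. The count of genes called was less stable. With DDR1i, 6 genes were called; DESeq2 called 12, no filter on low counts 15, and collagen replicate 3 included, collagen replicate 3 in place of 4, and control as reference gave 0 each. With RUNXi, 8 were called; all 4 groups in 1 fit gave 4, no filter 17, DESeq2 12, and the same 3 changes of reference libraries 0 each. Leaving out 1 library gave 0 to 14 calls with DDR1i (0 without collagen replicate 4 or DDR1i replicate 3, 2 without DDR1i replicate 4, 14 without DDR1i replicate 1) and 1 to 10 with RUNXi (1 without collagen replicate 4 or RUNXi replicate 3, 3 without RUNXi replicate 4, 4 without RUNXi replicate 1 or 2, 5 without DDR1i replicate 4). For collagen against control, 0 were called in edgeR, 7 with all 4 groups in 1 fit, 8 in DESeq2 and 6 with no filter; DDR1i against RUNXi gave 0 throughout. After the length trend was removed, 0 were called with DDR1i and RUNXi; GC content in place of length gave 6 and 7, the union of exons 1 and 3, the longest transcript 0 and 1, and leaving out 1 library 0 to 1 in both. Over all genes, DDR1i called 334, DESeq2 820 and no filter 755, and RUNXi called 549, 1155 and 1046. Calls over all genes are not given beside the other counts of this paragraph. Those counts thus do not show a change particular to the 34.

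Deviations of same-numbered libraries had correlations of 0.00 to 0.20 over 10 pairs in the inhibitor fit, 4 of them above 0.1, among these all 3 pairs of replicate 4 (0.164 to 0.200), and of 0.00 to 0.21 over 3 pairs in the collagen and control fit, 1 above 0.1. As not every pair was above 0.1, the numbers were not taken as pairs. With a replicate block 7, 8, 0 and 0 genes were called with DDR1i, with RUNXi, for collagen against control and for DDR1i against RUNXi, 6 of the 8 RUNXi calls being shared, and with the block and the length trend removed 0, 1 (EP400), 0 and 0. Over all genes the block moved the DDR1i calls from 334 to 537 and the RUNXi calls from 549 to 759.

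Signs turned as follows, the cause being untested. Against control, the estimate was below 0 for 20 of the 34 with DDR1i and 24 with RUNXi. Among the 13 genes named by rule, the log2 fold changes with DDR1i and RUNXi were −0.14 and −0.35 for ASH1L, −0.15 and −0.25 for CHD3, −0.15 and −0.19 for KDM5B, −0.25 and −0.27 for NCOR1, −0.062 and −0.11 for SMARCC1, and with DDR1i −0.076 for ATRX and −0.13 for ZMYND8. With collagen replicate 3 in place of 4 they were −0.094 for CHD3 (RUNXi), −0.0064 and −0.058 for KDM5B, −0.014 for NCOR1 (RUNXi) and −0.13 for ZMYND8 (DDR1i). With 1 library left out, KDM5B with RUNXi ran from −0.00053 (without collagen replicate 4) to 0.22, ZMYND8 with DDR1i from −0.084 (without collagen replicate 4) to 0.51, and ZMYND8 with RUNXi from −0.46 to 0.12 (without collagen replicate 1).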
